A study of Mus musculus with 16 samples.

Results

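The 8 genes described here encode the integrin αV subunit, 3 of the β subunits that pair with it and 4 further α subunits of fibronectin or α4-type receptors: Itgav, Itgb1, Itgb3, Itgb5, Itga5, Itga4, Itga8 and Itga9. They were taken by gene name from the deposited tables of mouse bone marrow macrophages, and each name matched 1 of the 54532 genes. All 8 were among the 15469 genes that passed the filter on low counts. Among the 8 members, 3 rose on fibronectin-coated dishes (Itgav, Itga5 and Itga8, averaged over both antibodies), beside 6.58% of all genes tested. No member passed the test between the neutralizing antibody to αV and its IgG control, beside 0.0129% of all genes on each coating. With so few genes called, that result does not set the members apart.

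Integrins are receptors made of 1 α and 1 β subunit that bind matrix proteins outside the cell and link them to the actin cytoskeleton. The αV subunit pairs with several β subunits to bind fibronectin, vitronectin and osteopontin, and some of these pairs release active TGF-β from its latent complex. The α5 subunit with β1 is the classical fibronectin receptor, α8β1 binds fibronectin and nephronectin, and α4β1 and α9β1 bind fibronectin splice segments, VCAM-1 or osteopontin. In macrophages such receptors serve adhesion, spreading, migration and the uptake of apoptotic cells.

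The macrophages were grown from tibial marrow of wild-type C57BL/6 mice aged 2 to 3 months, in 15% serum with CSF-1, the macrophage growth factor, at 12 ng/ml for 24 h and then at 120 ng/ml for 48 h. Adherent cells were passaged once, either onto dishes coated with fibronectin at 10 µg/ml or onto normal culture dishes, and then received antibody at 10 µg/ml for 24 h. The 4 groups of 4 libraries were anti-ITGAV on fibronectin, IgG on fibronectin, anti-ITGAV on uncoated dishes and IgG on uncoated dishes. All groups shared the wild-type genotype, the serum, which itself can carry matrix proteins, and the CSF-1. The antibody acts on the protein, so Itgav RNA does not check the antibody labels. The labels do not name separate cultures or animals behind the 4 libraries of a group, and the spread that the p-values rest on may thus be technical. In bulk RNA, fewer cells of a type and less RNA per cell cannot be told apart.

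Total counts per library lay between 27995035 and 43413650, and CPM are counts scaled to library size. The floor of detection, 3 counts in a library, corresponds to 0.0691 to 0.107 CPM and covers counting error only. The 10 macrophage markers summed to 27077 to 34938 CPM in every library, led by Lyz2, and none of them was at 0. One library, number 3 of anti-ITGAV on fibronectin, stood apart. Its mitochondrial share was 3.67%, and that of the other 15 libraries 1.30 to 1.60%. Libraries also differed in GC trend, the Spearman correlation across genes between a library's deviation from the mean log2 CPM and the GC content of the transcript. Genes are not independent replicates. The coefficient was -0.70 in that library and -0.30 to 0.55 in the other 15. Values with this GC trend removed per library, an alternative added after the data were seen, are given beside the results they touch.

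The promoter sequences of the 3 genes that rose on fibronectin are shown to set their starts side by side. Each is the run of 250 bases before the transcript start in RefSeq (GRCm38.p6), 5′ to 3′ on the gene's own strand: chr2:83724147-83724396, plus strand; chr15:103366792-103367041, minus strand; and chr2:12301945-12302194, minus strand. Capitals mark matches on either strand to the GC box (GGGCGG) or the PU.1 core (GAGGAA, bound by the macrophage factor PU.1).
Itgav: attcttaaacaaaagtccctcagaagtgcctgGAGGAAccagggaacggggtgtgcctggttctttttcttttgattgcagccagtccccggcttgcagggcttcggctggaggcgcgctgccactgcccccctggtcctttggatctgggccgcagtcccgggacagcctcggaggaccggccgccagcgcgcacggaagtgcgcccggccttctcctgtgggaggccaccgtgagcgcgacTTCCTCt
Itga5: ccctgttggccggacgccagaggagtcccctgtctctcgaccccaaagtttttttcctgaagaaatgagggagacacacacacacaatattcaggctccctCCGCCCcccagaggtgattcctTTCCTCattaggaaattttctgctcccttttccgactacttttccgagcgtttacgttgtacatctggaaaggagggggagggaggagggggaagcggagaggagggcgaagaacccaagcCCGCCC
Itga8: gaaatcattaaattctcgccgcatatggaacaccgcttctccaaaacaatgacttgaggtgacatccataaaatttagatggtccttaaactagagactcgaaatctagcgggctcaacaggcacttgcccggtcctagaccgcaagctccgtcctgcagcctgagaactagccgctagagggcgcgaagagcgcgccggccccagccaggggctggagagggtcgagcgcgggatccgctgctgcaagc
The Itgav run held 2 PU.1 core matches and no GC box, the Itga5 run 1 PU.1 core match and 2 GC boxes, and the Itga8 run neither. Over all 32851 RefSeq promoters of that table, 23.3% held the PU.1 core and 32.7% a GC box in the same window. No match to the AP-1 site (TGANTCA), the TATA box (TATAAA) or the CArG box stood in any of the 3 runs, against 6.75%, 12.4% and 1.47% of all promoters. A match is a stretch of letters and not evidence of binding. For 7 of the 8 members the RefSeq table held a promoter. The windows of Itga5 and Itga8 ended 28 and 22 bases before the deposited gene starts.

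Set side by side per length, Itgb1 and Itgb5 were far more abundant than Itgav, and Itgb3 was far less abundant. In FPKM (fragments scaled to gene length and library size), the means over the 16 libraries were 189 for Itgb1, 88.3 for Itgb5, 20.0 for Itga5, 16.02 for Itga4, 11.7 for Itgav, 3.45 for Itga8, 2.00 for Itga9 and 1.00 for Itgb3. The deposited gene lengths were 13978 bases for Itga4, 10744 for Itgav and 4933 for Itga5. Their longest transcripts have 9767, 7054 and 4415 bases. The order of Itga5 and Itga4, and the ratios between genes, therefore depend on the length used. Itgb1, whose product pairs with many α subunits, stood at 17.2 times the Itgav FPKM on average over libraries (range 12.0 to 23.4). Itgb5, which encodes a β subunit whose known partner is αV, stood at 8.31 times (3.63 to 13.0). Itgb3, the β3 subunit of platelets and osteoclasts, reached only 0.0982 times the Itgav FPKM (0.0340 to 0.190). Of the summed FPKM of these 3 β genes, Itgb1 held 67.8%, Itgb5 31.8% and Itgb3 0.364%. The remaining αV partners were nearly absent: Itgb8 had 41 counts and Itgb6 had 2 counts over all 16 libraries, and neither was tested.

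**Figure D1:**
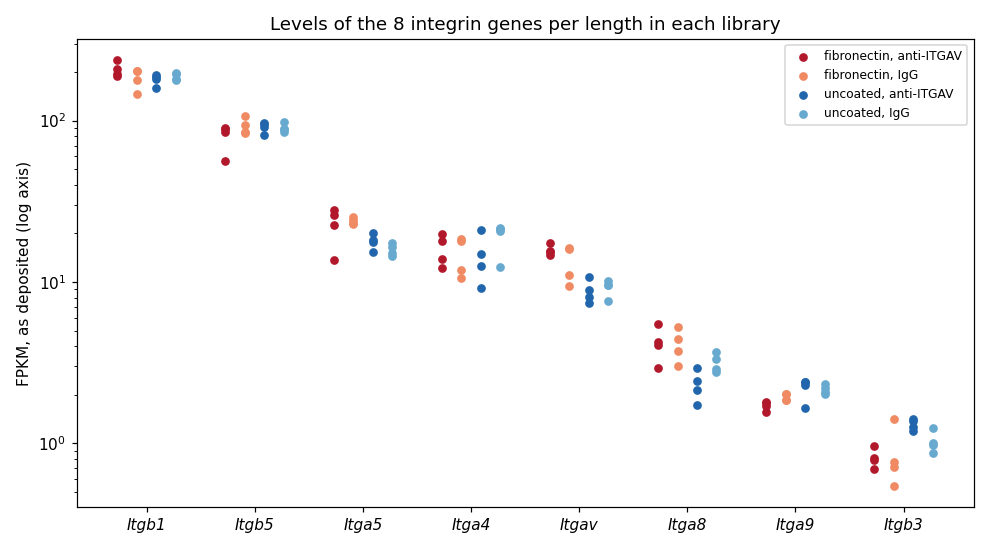
FPKM as deposited (log axis) of the 8 genes in each of the 16 libraries, ordered by mean level; colours are the 4 groups and each point is 1 library. Itgb1 and Itgb5 lie above every α gene, and Itga5, Itga4 and Itgav overlap one another.

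Among the α genes the order depended on the group. Itga5, Itga4 and Itgav had overlapping FPKM: in the order anti-ITGAV on fibronectin, IgG on fibronectin, anti-ITGAV on uncoated dishes and IgG on uncoated dishes, Itga5 averaged 22.5 ± 6.31, 23.9 ± 0.995, 17.8 ± 2.03 and 15.9 ± 1.37 FPKM (SD, n = 4 each). Itga4 averaged 15.9 ± 3.52, 14.8 ± 4.10, 14.4 ± 4.94 and 19.0 ± 4.44 FPKM in the same groups. Itgav averaged 15.7 ± 1.14, 13.1 ± 3.45, 8.78 ± 1.40 and 9.24 ± 1.13 FPKM. On fibronectin, Itgav and Itga4 were therefore level within their spread, while in uncoated IgG dishes all 4 Itga4 values (lowest 12.4 FPKM) lay above all 4 Itgav values (highest 10.2 FPKM). The ratio of Itga5 to Itga4 FPKM averaged 1.52 ± 0.675, 1.73 ± 0.557, 1.39 ± 0.613 and 0.898 ± 0.347 over the groups in that order, and the ranges of fibronectin and uncoated libraries overlapped under anti-ITGAV and under IgG. After removal of the GC trend this ratio was 1.41 to 1.96 on fibronectin against 0.838 to 1.46 on uncoated dishes under anti-ITGAV, still overlapping. Under IgG it was 1.43 to 1.63 on fibronectin against 0.769 to 1.13 on uncoated dishes, with no overlap. Itga8, Itga9 and Itgb3 were the lowest 3 members by mean. For comparison by length, the leukocyte integrin genes Itgb2 and Itgam averaged 351 and 69.5 FPKM, and Itga6, the laminin receptor subunit, 40.2 FPKM.

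Itgav (chromosome 2, 83724397 to 83806916, plus strand, GRCm38) was higher on fibronectin under both antibodies, and passed the test under anti-ITGAV. Under anti-ITGAV it stood at 191, 159, 166 and 169.5 CPM (scaled by TMM-adjusted totals) on fibronectin, against 82.0, 96.2, 88.5 and 116 CPM on uncoated dishes. Every fibronectin library lay above every uncoated library. The log2 change was 0.84 ± 0.16 (SE; edgeR adjusted p = 0.00560), or 1.79-fold. Under IgG it stood at 178, 102, 121 and 176 CPM on fibronectin, against 104, 105, 110.1 and 83.2 CPM on uncoated dishes. Libraries 1 and 4 on fibronectin were high, while library 2 was within the uncoated range, so the groups overlapped. The log2 change of 0.52 ± 0.16 under IgG did not pass (edgeR adjusted p = 0.0818). Averaged over both antibodies, Itgav rose by 0.68 ± 0.11 (edgeR adjusted p = 0.000648), and it passed without any 1 library in turn (largest edgeR adjusted p = 0.00223).

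The 2 low IgG libraries on fibronectin also differed in GC trend. The coefficient was 0.55 in library 2 and 0.39 in library 3, against -0.29 in library 1 and -0.25 in library 4, and the longest Itgav transcript has a GC content of 43.5%. With the GC trend removed, the 4 libraries stood at 162, 128, 133 and 161 CPM on fibronectin, against 99.1, 97.6, 101 and 91.1 CPM on uncoated dishes, and the groups no longer overlapped. In that fit Itgav rose by 0.67 ± 0.09 under anti-ITGAV (edgeR adjusted p = 5.77e-05) and by 0.59 ± 0.09 under IgG (edgeR adjusted p = 0.000232). Itgav shares 634 exon bases with the opposite-strand gene Gm13684, and since the strand setting of the counting is not known, reads there cannot be told apart.

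Of the 8 members, 2 (Itgav and Itga8) were called under anti-ITGAV, 1 (Itga5) under IgG and 3 on average over both antibodies, all higher on fibronectin. Over all 15469 genes, the edgeR test called 5.66%, 3.79% and 11.8% in these comparisons, and 2.84%, 2.37% and 6.58% as higher. The medians over the 8 members were 0.17, 0.01 and 0.009 on the log2 scale, beside 0.008, 0.002 and 0.004 over all genes tested. With the GC trend removed these medians were 0.04, 0.002 and 0.02, beside -0.001, -0.004 and -0.005 over all genes tested. The CPM ranges of fibronectin and uncoated libraries did not overlap for 3 members under anti-ITGAV (Itgav and Itga8 higher, Itgb3 lower) and for 1 under IgG (Itga5, higher), while this held for 14.1% and 13.1% of all genes. With the GC trend removed, 4 members were called under anti-ITGAV, 3 under IgG and 5 on average, beside 12.6%, 11.1% and 21.9% of all genes. DESeq2 called 4, 2 and 5 members in the same comparisons. Of the genes to which it gave an adjusted p (13231, 13792 and 14913), it called 11.4%, 7.07% and 15.1%.

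**Figure D2:**
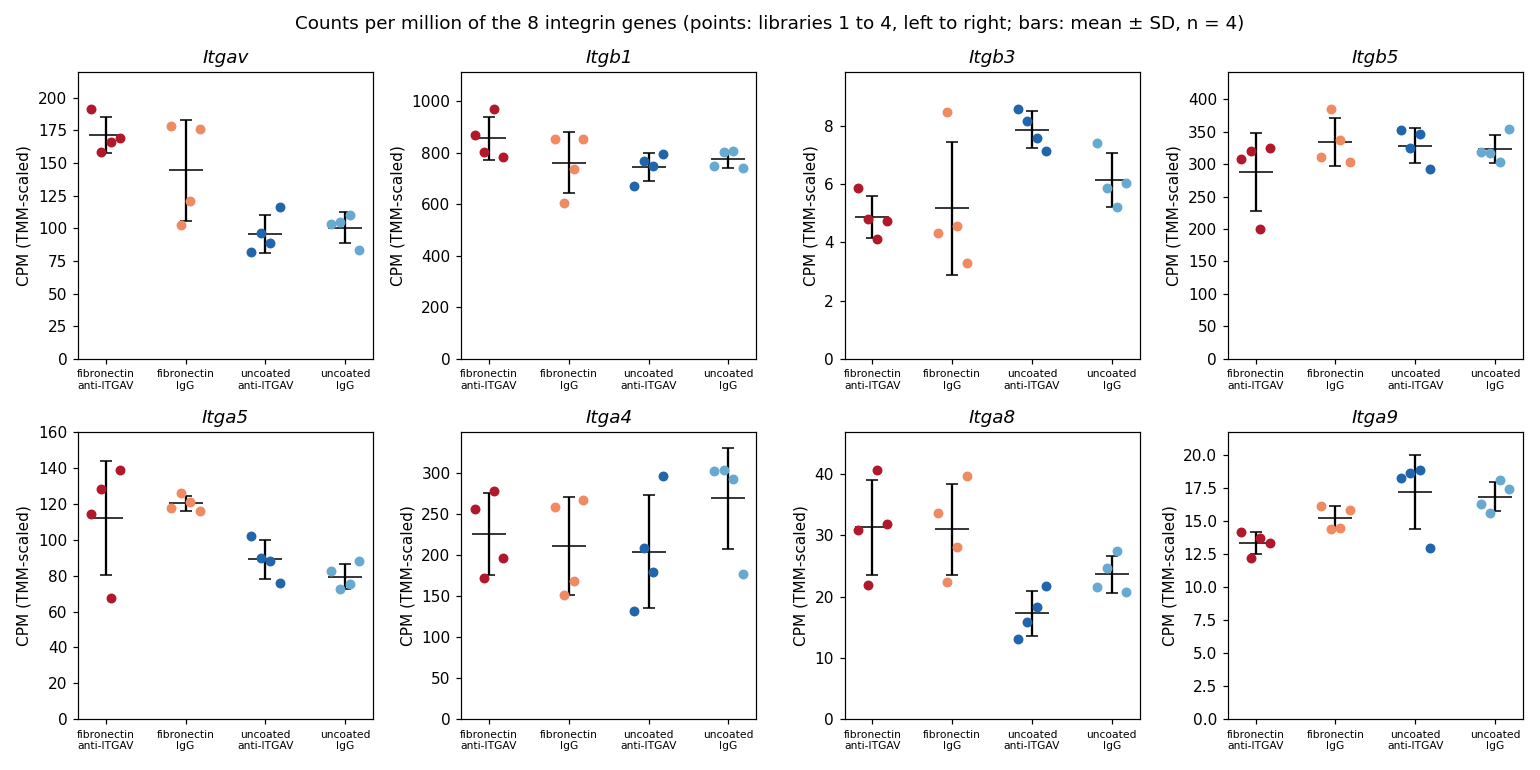
CPM (TMM-scaled, linear axes from 0) of each of the 8 genes in the 4 groups; points are libraries 1 to 4 from left to right and bars are mean ± SD (n = 4). All anti-ITGAV libraries on fibronectin lie above all uncoated libraries for Itgav, and library 3 of that group is low for Itga5 (67.3 CPM) and Itgb5 (199 CPM).

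Itga5 (chromosome 15, 103344286 to 103366763, minus strand), which encodes the α subunit of the fibronectin receptor, was higher on fibronectin under IgG. It stood at 118, 126, 121 and 116 CPM on fibronectin, against 82.5, 72.3, 75.1 and 88.1 CPM on uncoated dishes, with no overlap. The log2 change was 0.60 ± 0.16 (edgeR adjusted p = 0.0475), or 1.51-fold. This call was close to the threshold and was lost in 13 of the 16 fits that left out 1 library, with edgeR adjusted p from 0.000406 without library 3 of anti-ITGAV on fibronectin to 0.171 without library 2 of uncoated IgG. Under anti-ITGAV it stood at 115, 129, 67.3 and 139 CPM on fibronectin, against 102, 90.0, 88.4 and 76.1 CPM on uncoated dishes. Library 3, the one that stood apart, was the lowest of all 8, and the other 3 were above every uncoated library. The log2 change was 0.33 ± 0.16 (edgeR adjusted p = 0.234) with that library and 0.52 ± 0.10 (edgeR adjusted p = 0.00314) without it.

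With the GC trend removed, Itga5, whose longest transcript has a GC content of 57.3%, stood at 113, 123, 113 and 136 CPM under anti-ITGAV on fibronectin, against 89.9, 87.4, 82.1 and 77.6 CPM on uncoated dishes. It then rose by 0.52 ± 0.07 under anti-ITGAV (edgeR adjusted p = 5.26e-05) and by 0.53 ± 0.07 under IgG (edgeR adjusted p = 5.03e-05). Averaged over antibodies without that correction, the log2 change was 0.47 ± 0.11 (edgeR adjusted p = 0.0116), and it passed in each fit that left out 1 library (largest edgeR adjusted p = 0.0318).

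Itga8 (chromosome 2, 12106632 to 12301922, minus strand), the α subunit of a fibronectin and nephronectin receptor best known from kidney and smooth muscle, rose on fibronectin under anti-ITGAV. It stood at 30.9, 21.8, 40.8 and 31.9 CPM on fibronectin, against 13.1, 15.9, 18.4 and 21.8 CPM on uncoated dishes. The lowest fibronectin library and the highest uncoated library were level to the first decimal. The log2 change was 0.86 ± 0.20 (edgeR adjusted p = 0.0173). The call was lost without library 3 of anti-ITGAV on fibronectin (0.71 ± 0.20, edgeR adjusted p = 0.0536) and without library 1 or 2 of uncoated anti-ITGAV (edgeR adjusted p = 0.0591 and 0.0614).

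Under IgG, Itga8 stood at 33.7, 22.4, 28.1 and 39.8 CPM on fibronectin, against 21.6, 24.7, 27.4 and 20.8 CPM on uncoated dishes, with overlap at library 2 on fibronectin. The log2 change of 0.39 ± 0.20 did not pass (edgeR adjusted p = 0.366), but did with the GC trend removed (0.45 ± 0.12, edgeR adjusted p = 0.0176). Averaged over antibodies Itga8 rose by 0.63 ± 0.14 (edgeR adjusted p = 0.00653). The 8 fibroblast markers, cells in which α8 is also known, summed to 5.33 to 8.58 CPM in anti-ITGAV libraries on fibronectin and 10.9 to 13.9 CPM on uncoated dishes, and under IgG to 7.84 to 9.09 CPM on fibronectin and 12.8 to 15.3 CPM on uncoated dishes. Lum among them was at 0, and their part in the Itga8 values was not tested. Itga8 shares 372 exon bases with an opposite-strand antisense gene.

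**Figure D3:**
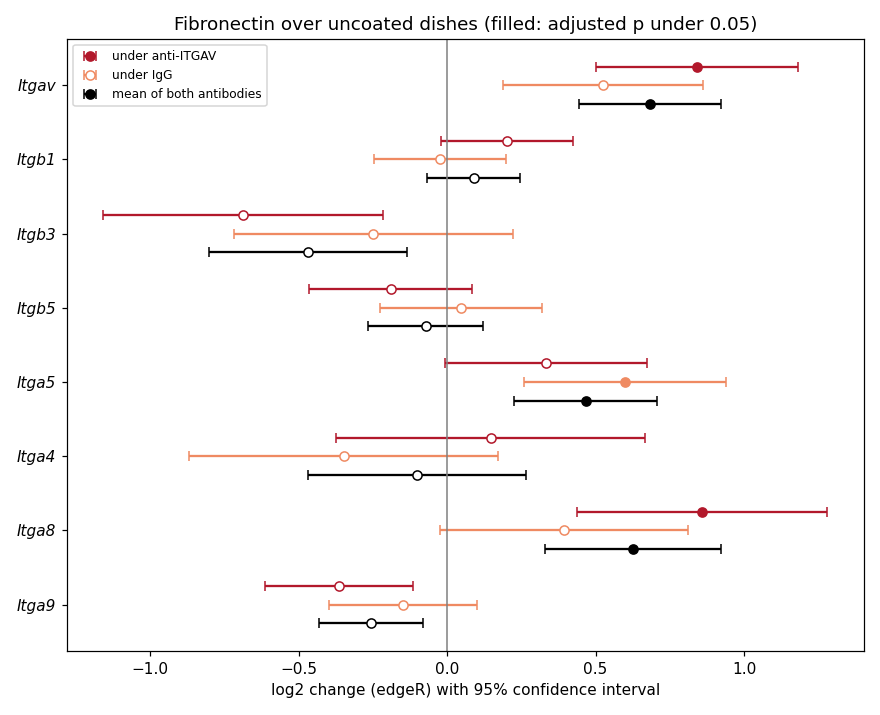
Log2 change (edgeR) of the 8 genes for fibronectin over uncoated dishes, under anti-ITGAV, under IgG and averaged, with 95% confidence intervals; filled points have an adjusted p under 0.05. Itgav, Itga5 and Itga8 lie to the right of 0 in all 3 comparisons.

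The β subunit genes, Itga4 and Itga9 had no called change with coating in the edgeR fit with TMM factors, while Itgb3 and Itga9 were called lower on average with the GC trend removed and with DESeq2. Itgb1 (chromosome 8, 128685654 to 128733200, plus strand) averaged 856 ± 83.4 CPM under anti-ITGAV on fibronectin against 745 ± 53.4 CPM on uncoated dishes (SD, n = 4 each), a log2 change of 0.20 with a 95% interval of -0.02 to 0.42. Under IgG it averaged 762 ± 118 CPM on fibronectin against 774 ± 34.8 CPM on uncoated dishes, a log2 change of -0.02 (-0.25 to 0.20). With the GC trend removed, Itgb1 averaged 811 ± 15.6 CPM under anti-ITGAV on fibronectin against 773 ± 12.4 CPM on uncoated dishes. Under IgG these means were 777 ± 36.5 and 761 ± 21.4 CPM. Itgb5 (chromosome 16, 33829665 to 33949338, plus strand) averaged 288 ± 59.5 CPM under anti-ITGAV on fibronectin against 329 ± 26.8 CPM on uncoated dishes. Its low mean rested on library 3, at 199 CPM against 308, 319 and 325 CPM in the others. Under IgG, Itgb5 averaged 334 ± 36.7 CPM on fibronectin against 323 ± 21.6 CPM on uncoated dishes, and the averaged log2 change was -0.07 (-0.27 to 0.12). With the GC trend removed, library 3 of anti-ITGAV on fibronectin stood at 327 CPM of Itgb5, against 306, 305 and 317 CPM in the others. The Itgb5 means under anti-ITGAV were then 314 ± 10.3 CPM on fibronectin and 311 ± 9.57 CPM on uncoated dishes.

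Itgb3 (chromosome 11, 104608000 to 104670476, plus strand) stood at 5.87, 4.80, 4.12 and 4.75 CPM under anti-ITGAV on fibronectin, against 8.58, 8.17, 7.61 and 7.13 CPM on uncoated dishes. All 4 fibronectin values lay under all 4 uncoated values, and the log2 change of -0.69 ± 0.22 did not pass (edgeR adjusted p = 0.0812). Under IgG it stood at 4.31, 8.50, 4.58 and 3.29 CPM on fibronectin, against 7.42, 5.86, 5.23 and 6.06 CPM on uncoated dishes. Library 2 was the highest of these 8, and without it the averaged change was called (-0.64, edgeR adjusted p = 0.00137), against -0.47 ± 0.16 with it (edgeR adjusted p = 0.0655). Of the 16 fits that left out 1 library, only that 1 called the averaged change (largest edgeR adjusted p = 0.146). With the GC trend removed the change was -0.61 ± 0.19 under anti-ITGAV (edgeR adjusted p = 0.0436) and -0.46 ± 0.14 averaged (edgeR adjusted p = 0.0180), and both passed. The 8 megakaryocyte and platelet markers, cells rich in β3, summed to 453 to 485 CPM under anti-ITGAV on fibronectin and 611 to 704 CPM on uncoated dishes, nearly all from Pf4, with Gp1bb at 0. The 9 osteoclast markers summed to 197 to 212 CPM and 196 to 212 CPM in the same groups. Over all 16 libraries Pf4 averaged 525 CPM and the median megakaryocyte and platelet marker 1.79 CPM. The sum of that list was thus mainly a Pf4 value and no measure of these cells. The part of either cell type in the Itgb3 values was not tested.

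Itga4 (chromosome 2, 79255426 to 79333123, plus strand) had overlapping ranges in every comparison. It stood at 256, 172, 278 and 196 CPM under anti-ITGAV on fibronectin, against 131, 208, 179.6 and 295 CPM on uncoated dishes, a log2 change of 0.15 ± 0.25. Under IgG it stood at 258, 151, 169 and 266 CPM on fibronectin, against 302, 304, 292 and 176 CPM on uncoated dishes, a log2 change of -0.35 ± 0.25. The longest Itga4 transcript has the lowest GC content of the 8 (41.1%), and with the GC trend removed the IgG libraries stood at 225, 201, 194 and 234 CPM on fibronectin, against 277, 271, 257 and 205 CPM on uncoated dishes. Itga4 also shares 1124 exon bases with the opposite-strand gene Cerkl. Itga9 (chromosome 9, 118606690 to 118901003, plus strand) stood at 14.2, 12.2, 13.7 and 13.3 CPM under anti-ITGAV on fibronectin, against 18.3, 18.6, 18.9 and 13.0 CPM on uncoated dishes. Only library 4 of the uncoated group was low, and the log2 change was -0.36 ± 0.12 (edgeR adjusted p = 0.0812), or -0.48 without that library (edgeR adjusted p = 0.0157). No other of the 16 fits that left out 1 library called this change (largest edgeR adjusted p = 0.221). Averaged over antibodies it was -0.26 ± 0.08 (edgeR adjusted p = 0.0560), and -0.24 ± 0.08 with the GC trend removed (edgeR adjusted p = 0.0315).

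**Figure D4:**
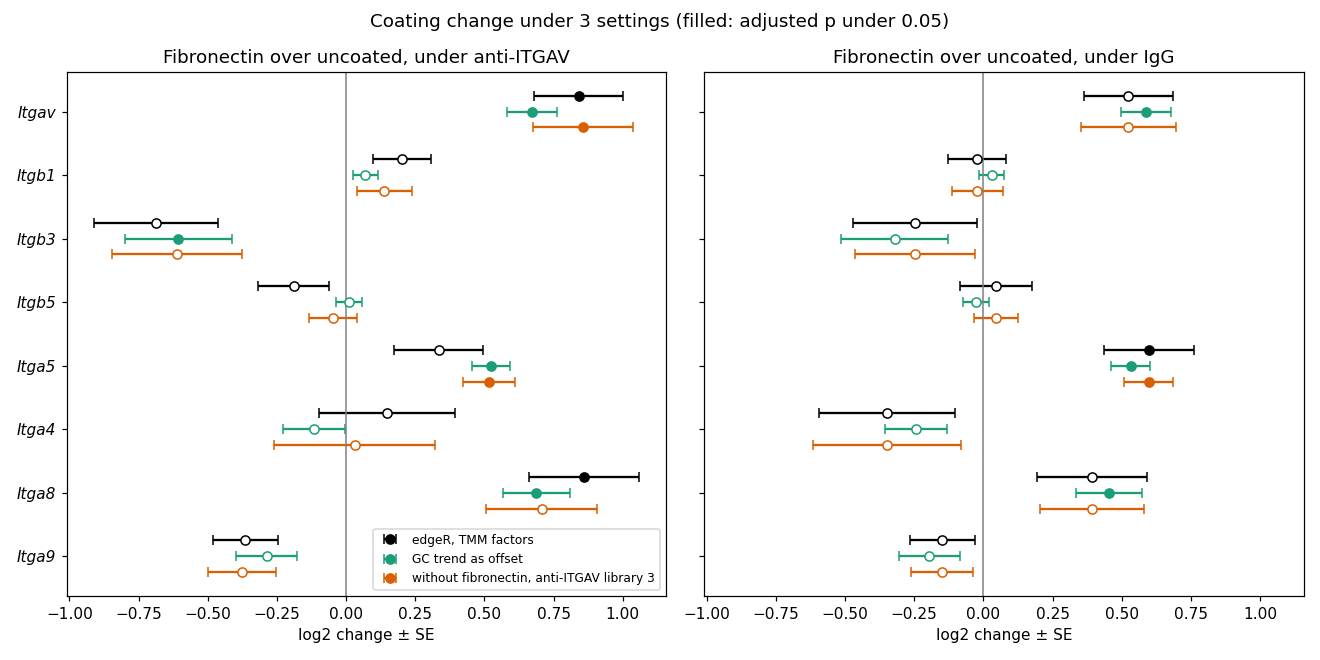
Log2 change ± SE of the 8 genes for fibronectin over uncoated dishes under anti-ITGAV (left) and IgG (right), for the edgeR fit with TMM factors, with the GC trend as offset, and without library 3 of anti-ITGAV on fibronectin; filled points have an adjusted p under 0.05. Itga5 under anti-ITGAV is 0.33 with that library, 0.52 without it and 0.52 with the GC offset.

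For anti-ITGAV against IgG, 0 of the 8 members passed edgeR's test on either coating, and 0.0129% of all genes were called on each. These comparisons use the same libraries as the coating comparisons above, so the values are given side by side only. On fibronectin, the 95% interval of the log2 change was -0.09 to 0.58 for Itgav (estimate 0.25). On uncoated dishes the interval for Itgav was -0.41 to 0.27. For Itgb1 the intervals were -0.05 to 0.39 on fibronectin and -0.28 to 0.17 on uncoated dishes, and for Itgb5 -0.49 to 0.06 and -0.25 to 0.30. Those of Itga5 were -0.44 to 0.24 and -0.17 to 0.50, and those of Itga4, the widest of the α genes, -0.42 to 0.61 and -0.92 to 0.12. At an unadjusted p under 0.05 were 0 members on fibronectin and 1 on uncoated dishes, beside 4.65% and 3.04% of all genes. That 1 member was Itga8, which averaged 17.3 ± 3.71 CPM in anti-ITGAV dishes and 23.6 ± 3.03 CPM in IgG dishes. Its log2 change was -0.45 ± 0.20 (edgeR adjusted p = 0.988). The CPM ranges of the antibodies were apart for 1 member on fibronectin (Itga9, 12.2 to 14.2 CPM with anti-ITGAV and 14.4 to 16.1 CPM with IgG) and for 0 on uncoated dishes, beside 2.42% and 3.15% of all genes. DESeq2 called 0 members and 16 genes in both comparisons. These were 0.072% of the 22211 genes to which it gave an adjusted p on fibronectin. On uncoated dishes they were 0.111% of 14353 such genes. Averaged over coatings, edgeR called 0 members and 0.0711% of all genes.

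**Figure D5:**
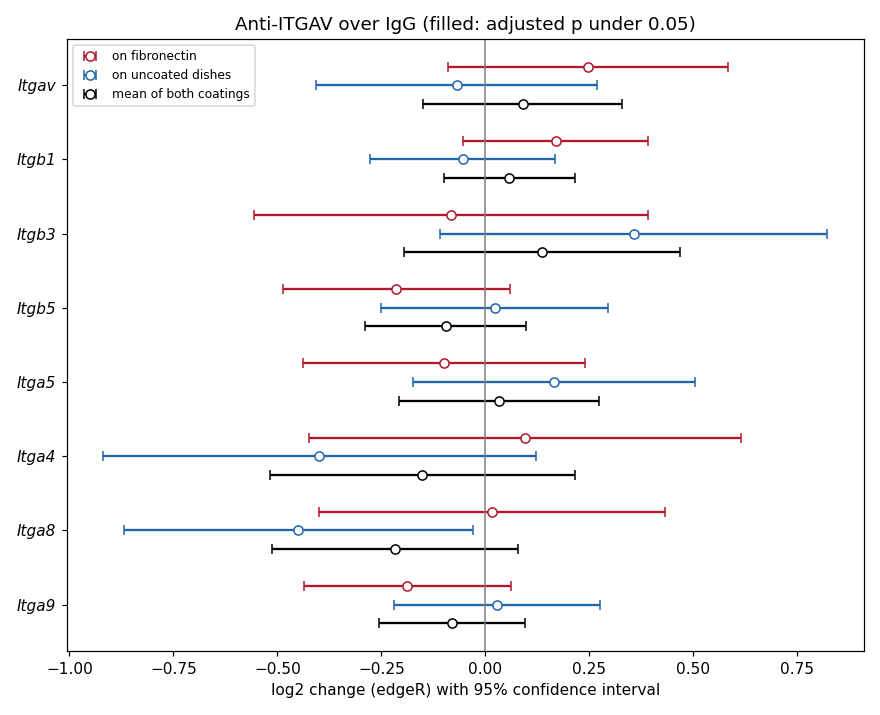
Log2 change (edgeR) of the 8 genes for anti-ITGAV over IgG on fibronectin, on uncoated dishes and averaged, with 95% confidence intervals; no point has an adjusted p under 0.05. The interval of Itga8 on uncoated dishes, -0.87 to -0.03, is the only one that does not include 0.

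Whether the coating change differed between antibodies was tested as the interaction, and no member passed (edgeR adjusted p from 0.646 to 0.647, and 0 members at an unadjusted p under 0.05). The call for Itgav under anti-ITGAV and not under IgG is therefore not shown to be a difference, with an interaction of 0.32 (95% interval -0.16 to 0.79). For Itga5, called only under IgG, it was -0.26 (-0.74 to 0.22), and for Itga8, called only under anti-ITGAV, 0.47 (-0.12 to 1.06). Over all genes edgeR called 0% for the interaction (614 genes had an unadjusted p under 0.05). DESeq2 called 1 gene (0.00345% of the 28948 to which it gave an adjusted p), which was not a member.

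Libraries share depth, GC trend and coating, so what follows is a description only. Given are the genes whose log2 CPM most resembled that of a member across the 16 libraries. For Itgav they were Flrt2 (Pearson's r = 0.982), Cdk14, Cdk6, Ell2, Dhrs9 and Spp1 (r = 0.968), of 8427 protein-coding genes compared. Spp1 encodes osteopontin, an αV ligand. With the GC trend removed these 6 still had r of 0.944 to 0.977 with Itgav. All 6 were themselves called higher on fibronectin, averaged over antibodies (log2 change 0.40 to 1.06), as were the genes given below for Itga5 and Itga8. For Itga5 they were Tgm2, Kcnn4 and Adam8 (r = 0.971 to 0.983, and 0.872 to 0.979 with the GC trend removed), and Tgm2 encodes transglutaminase 2, a fibronectin- and integrin-binding protein. For Itga8 they were Agfg1, Clec5a and Hells (r = 0.951 to 0.957), with r of 0.615, 0.900 and 0.913 once the GC trend was removed. For Itgb1 they were Mapre1, Nus1 and Ergic2, whose r was 0.965 to 0.971 and became 0.315 to 0.755 with the GC trend removed. For Itgb5 they were Eef2, C1qa and Tkt, whose r was 0.987 to 0.988 and became -0.17 to 0.52. Itga9 had no gene above r = 0.770, with Zfat, Galk2 and Thrap3 first, and with the GC trend removed these had r of 0.740, 0.128 and 0.722. Among the members, Itgav and Itga8 had r = 0.82 and Itgav and Itga5 r = 0.405, and with the GC trend removed 0.72 and 0.93 (n = 16 libraries).

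The counts of called genes in the lists that follow stand beside 5.66% of all genes called under anti-ITGAV and 3.79% under IgG, with medians over all genes of 0.008 and 0.002. The other integrin genes tested numbered 13. Itgax (CD11c), the α subunit of a β2 receptor of macrophages and dendritic cells, rose on fibronectin by 1.11 ± 0.12 under anti-ITGAV (edgeR adjusted p = 4.98e-05) and by 1.19 ± 0.12 under IgG (edgeR adjusted p = 2.41e-05). It averaged 45.5 ± 3.56 CPM under anti-ITGAV on fibronectin, against 21.1 ± 1.77 CPM on uncoated dishes. Itgb2l, a β2-like gene, fell under anti-ITGAV to 1.79 ± 0.585 CPM on fibronectin, against 3.88 ± 0.868 CPM on uncoated dishes (log2 change -1.11 ± 0.26, edgeR adjusted p = 0.0165). The remaining 11 did not pass, and the list median was 0.07 under anti-ITGAV and 0.06 under IgG.

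Of 17 tested integrin ligand genes, 3 rose and 1 fell under each antibody, with list medians of 0.13 under anti-ITGAV and 0.09 under IgG. Thbs1, thrombospondin 1, fell by 1.36 on the log2 scale under anti-ITGAV and by 1.21 under IgG. Jam2, a junctional adhesion molecule and α4β1 ligand, rose by 1.23 ± 0.23 under anti-ITGAV and 0.90 ± 0.23 under IgG, at a low level of 3.46 ± 0.525 CPM on fibronectin against 1.48 ± 0.215 CPM on uncoated dishes under anti-ITGAV. Spp1 rose by 0.91 ± 0.17 and 0.65 ± 0.17 under the same antibodies, and Fn1, fibronectin itself, by 0.40 ± 0.11 and 0.66 ± 0.11. Fn1 under anti-ITGAV was close to the threshold (edgeR adjusted p = 0.0492). No gene of the 8 latent TGF-β and carrier genes was called under either antibody (list medians -0.08 under anti-ITGAV and 0.09 under IgG); by unadjusted p, Lrrc32, the GARP anchor of latent TGF-β, came first under anti-ITGAV (0.70 ± 0.27, edgeR adjusted p = 0.135). In the fit with the GC offset, Lrrc32 rose by 0.94 ± 0.24 and Ltbp2, a latent TGF-β binding protein gene, by 0.65 ± 0.21 under anti-ITGAV (edgeR adjusted p = 0.0136 and 0.0485), and 0 of the 8 were called under IgG.

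Inside the cell, integrins are switched by proteins that bind their tails. Of 14 activators and inactivators, 0 were called under anti-ITGAV and 1 under IgG, where Flna, the filamin that binds β tails, rose by 0.48 ± 0.10 (list medians -0.12 under anti-ITGAV and 0.005 under IgG). Of 23 adaptors and kinases, Ptk2 (focal adhesion kinase) rose by 0.63 ± 0.11 and Tns1 (tensin 1) fell by 0.74 on the log2 scale under anti-ITGAV. Under IgG 5 rose and 0 fell, namely Ptk2b (PYK2, 0.45 ± 0.08), Parvb (0.45 ± 0.10), Arhgef7 (0.36 ± 0.08), Nedd9 (0.47 ± 0.12) and Actn1 (0.37 ± 0.10), with list medians of 0.002 under anti-ITGAV and 0.08 under IgG. Of 15 trafficking genes only Numb, an endocytic adaptor for integrins, rose, by 0.38 ± 0.07 under anti-ITGAV and 0.40 ± 0.07 under IgG (list medians 0.15 and 0.09).

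Of 13 membrane partners, Plaur, the urokinase receptor, rose by 0.90 ± 0.14 under anti-ITGAV and 1.12 ± 0.14 under IgG. The tetraspanin gene Cd9 rose by 0.63 ± 0.14 and 0.56 ± 0.14 under the same antibodies. Sdc4, syndecan 4, a fibronectin co-receptor, fell by 0.34 on the log2 scale under anti-ITGAV. The medians of this list were -0.01 under anti-ITGAV and 0.20 under IgG. Anti-ITGAV against IgG called 0 genes of any of these lists on either coating by edgeR, with list medians between -0.15 and 0.15, beside 0.00 over all genes on fibronectin and 0.01 on uncoated dishes. After removal of the GC trend, more genes were called in these lists, as over all genes (12.6% under anti-ITGAV and 11.1% under IgG). Under anti-ITGAV 6 adaptors rose and 3 fell, and under IgG 7 rose and 3 fell. Among membrane partners 4 rose and 2 fell under anti-ITGAV, and 7 rose and 0 fell under IgG. Of the ligands 5 rose and 1 fell under each antibody, and of the other integrins 3 rose and 1 fell under anti-ITGAV and 3 rose and 0 fell under IgG. Trafficking genes rose in 2 cases under anti-ITGAV and 3 under IgG, activators in 1 and 2 cases, and none of either list fell. The list medians then were 0.13 under anti-ITGAV and 0.05 under IgG for adaptors and kinases, the reverse of the order given above. In the same order of antibodies they were 0.09 and 0.15 for membrane partners and -0.007 and 0.02 for ligands. They were 0.18 and -0.01 for other integrins, -0.06 and -0.06 for activators, and 0.06 and 0.08 for trafficking genes. For latent TGF-β genes they were 0.03 and 0.03, and over all genes -0.001 and -0.004. Neutrophil markers (9 genes) summed to 209 to 361 CPM under anti-ITGAV on fibronectin and 306 to 362 CPM on uncoated dishes, and to 325 to 419 CPM and 425 to 449.6 CPM under IgG. Mast cell and basophil markers (6 genes) summed to 8.08 to 12.1 CPM and 18.1 to 23.7 CPM under anti-ITGAV, and to 13.5 to 17.1 CPM and 24.3 to 31.2 CPM under IgG. The part of these cells in the list values was not tested.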

How the data were processed

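Poly-A RNA of 16 libraries was read paired-end, as the labels' protocols state. Deposited were a count for each gene in each library and FPKM values, which equal the count divided by gene length and a constant per library. The submitters' processing notes name HISAT2, StringTie, featureCounts, mm10 and GRCm38.p6; for these, role, version and strand setting were not given in the sources used here. Total counts were 27995035 to 43413650, and replicate pairs differed beyond sampling noise (chi-square over degrees of freedom 5.15 to 185), so none was counted as a duplicate.

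Counts were filtered with filterByExpr (minimum count 10), scaled by TMM and fitted over all 4 groups with edgeR 4.0.16 in R 4.3.3. The quasi-likelihood test was used, with Benjamini-Hochberg adjustment over 15469 genes and a threshold of 0.05. The edgeR fit was tested on simulated counts without a GC trend and without a library that stood apart. That test therefore says nothing on how these features of the data affect the calls. CPM correlations used a prior count of 2. Alternatives were DESeq2 1.42.0, limma 3.58.1 on log2(FPKM + 1) or log2(FPKM + 0.1), other scalings and filters, a replicate block and leaving out each library. A GC offset (lowess, span 0.3, GC known for 15457 genes) was added after seeing the data. Figures used matplotlib 3.10.9 with Python 3.11.15.

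Members and lists were chosen with earlier results of these data known. All 8 members are named, and of each list up to 3 genes with the smallest unadjusted p in a comparison, plus those in counts of 5 or fewer. The 3 genes most like each member with a mean of at least 10 CPM are named, and 6 for Itgav; those of Itga4 are not reported here. Columns not mapped to a sample numbered 0.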

Additional observations from a re-analysis of the deposited data

Results flagged for a closer look

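In 4 of 36 groups of 4 libraries examined, 1 library lay far from the other 3 by Dixon's criterion, which chance meets in about 1 in 20 groups. Library 3 of anti-ITGAV on fibronectin had 199 CPM of Itgb5, against 308 to 325 CPM in the other 3. With the GC trend removed it had 327 CPM, against 305 to 317 CPM. The same library had 3.67% mitochondrial counts, against 1.35 to 1.45% in the other 3. Library 4 of anti-ITGAV on uncoated dishes had 13.0 CPM of Itga9, against 18.3 to 18.9 CPM. Library 4 of IgG on uncoated dishes had 176 CPM of Itga4, against 292 to 304 CPM.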

How the results depend on the processing

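Itgav under anti-ITGAV, and Itgav and Itga8 averaged over antibodies, were called on fibronectin in every alternative run. Itga5 averaged over antibodies lost its call only with limma without a filter (adjusted p = 0.052). Other calls and all counts depended on the setting, and the cause was not tested. Members called under IgG (1) became 2 with DESeq2, 3 with the GC offset (3 also without library 3 of anti-ITGAV on fibronectin), and 0 with upper-quartile factors, each limma fit or the replicate block. Members called under anti-ITGAV (2) became 4 with DESeq2 and 4 with the GC offset, but fewer than 4 with that offset without library 3. They became 1 with limma without a filter or with the 8 libraries alone. Averaged (3), they became 5 with DESeq2, 5 with the GC offset and 5 with that offset without library 3. Leaving out 1 library gave 0 to 1 members under IgG and 1 to 3 under anti-ITGAV.

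Over all genes, calls under IgG (586) became 975 with DESeq2, 1711 with the GC offset, 2330 with that offset without library 3, and 253 to 1325 without 1 library. Under anti-ITGAV (876) they became 1509, 1943 and 1980 in the same order, 251 with the 8 libraries alone, and 428 to 1037 without 1 library. Averaged (1831), they became 3391 and 3689 with the GC offset, with and without library 3. For the antibody on fibronectin (2), DESeq2 gave 16, the GC offset 10, that offset without library 3 12, limma without a filter 4, edgeR without a filter 4, the 8 libraries alone 0, and leaving out 1 library 1 to 5. On uncoated dishes (2), DESeq2 gave 16, the GC offset 7, that offset without library 3 25, limma without a filter 1, and leaving out 1 library 0 to 2. Averaged over coatings (11), DESeq2 gave 43, the GC offset 50, that offset without library 3 68, limma on log2(FPKM + 0.1) 18, and leaving out 1 library 4 to 22. DESeq2 called 1 gene for the interaction.

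Same-numbered libraries had correlations of their deviations of -0.301 to 0.277, with 4 of 24 pairs over 0.1. Of 16 libraries, 2 were closest to their own number, so these values showed no pairing by number. The deviations also carry the GC trend of each library, so this check cannot exclude a pairing, which the labels do not state. With the replicate block, genes called were 360 under IgG and 0 for the antibody on uncoated dishes, and Itga5 under IgG had an edgeR adjusted p of 0.0728.

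Changes of sign were limited to log2 changes that had not passed. With the GC offset, and with it without library 3, anti-ITGAV over IgG on fibronectin gave -0.083 and -0.069 for Itga4, 0.083 and 0.12 for Itga5, -0.12 and -0.18 for Itga8, and 0.010 and 0.041 for Itgb3 (0.0020 with limma on log2(FPKM + 0.1)). On uncoated dishes it gave -0.032 and -0.032 for Itga9, 0.051 and 0.051 for Itgav, 0.021 and 0.021 for Itgb1, and -0.048 and -0.048 for Itgb5. Fibronectin over uncoated gave, under anti-ITGAV, -0.12 and -0.10 for Itga4 and 0.011 for Itgb5 (GC offset), and under IgG 0.029 and 0.028 for Itgb1 and -0.026 and -0.027 for Itgb5. The interaction gave 0.037 and 0.017 for Itgb5, and 0.025 for Itga5 without library 3. Without 1 library, the antibody change on fibronectin ranged from -0.036 to 0.23 for Itga4, -0.21 to 0.082 for Itga5, -0.14 to 0.16 for Itga8 and -0.25 to 0.27 for Itgb3. On uncoated dishes it ranged from -0.022 to 0.14 for Itga9 and -0.018 to 0.074 for Itgb5, and averaged over coatings from -0.031 to 0.12 for Itga5. The coating change ranged from -0.015 to 0.38 for Itga4 under anti-ITGAV and -0.18 to 0.016 averaged, and under IgG from -0.10 to 0.073 for Itgb1 and -0.028 to 0.093 for Itgb5.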
